A study of Mus musculus with 8 samples.

Results

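The genes described here are 10 immediate early genes: the nuclear receptors Nr4a1, Nr4a2 and Nr4a3, the zinc finger factors Egr1, Egr2 and Egr3, and the regulators Btg2, Ier2, Ier3 and Dusp1. They were chosen by name, with earlier results of these data known, and all 10 were found once each among the 54532 genes of the count table. RNA-seq compared 4 libraries of MTP KO MA-10 cells with 4 libraries of WT MA-10 cells, a mouse Leydig tumor line that makes progesterone when cyclic AMP rises. KO cells carry CRISPR-Cas9 edits of Mttp, which encodes microsomal triglyceride transfer protein, and were made by electroporating Cas9 with guide RNAs and diluting to single cells. The KO libraries therefore stand for clonal material, and the sources do not say which of the clones they came from. WT cells are the unedited line. An effect of the Mttp edit and an effect of cloning therefore cannot be told apart here. Both groups were cultured for 48 h and then stimulated with 0.5 mM 8-BrcAMP, a cyclic AMP analog, for 3 h. No unstimulated library was analysed here, so a different induction and a different resting level cannot be told apart. All libraries share the 3 h time, so a different size of response and a different timing or decay cannot be told apart either.

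Immediate early genes are transcribed within minutes of a signal without new protein synthesis. In Leydig cells, luteinizing hormone raises cyclic AMP, which activates protein kinase A. The kinase phosphorylates CREB, which binds the cyclic AMP response element (CRE) and switches on many of these genes. Growth factor signals reach the same genes through ERK and serum response factor, which binds the CArG box. NR4A receptors bind DNA as monomers at the NBRE and as dimers, and several promoters of steroidogenic genes respond to them. EGR factors bind GC-rich sites. Btg2, Ier2, Ier3 and Dusp1 act on proliferation, survival and the switching off of MAP kinases.

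Promoter sequence was examined first, because the members share a known upstream signal. RefSeq windows on GRCm38.p6, from 250 bases before to 50 bases after the transcription start, were available here for 7 of 10 members. Those of Nr4a1, Nr4a2, Nr4a3, Btg2 and Dusp1 are printed, up to the start itself, because they hold the CRE or several of its half-sites. Capitals mark each match to the full CRE, TGACGTCA, and to its half-site TGACG, on either strand (CGTCA where it lies on the opposite one).

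Nr4a1, chr15:101266596-101266845, plus strand: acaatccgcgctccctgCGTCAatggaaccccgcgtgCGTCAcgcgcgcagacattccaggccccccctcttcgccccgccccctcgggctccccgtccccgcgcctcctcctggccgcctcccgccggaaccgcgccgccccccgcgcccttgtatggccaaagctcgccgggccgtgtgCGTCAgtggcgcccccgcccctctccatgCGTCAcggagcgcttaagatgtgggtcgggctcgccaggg
Nr4a2, chr2:57124004-57124253, minus strand: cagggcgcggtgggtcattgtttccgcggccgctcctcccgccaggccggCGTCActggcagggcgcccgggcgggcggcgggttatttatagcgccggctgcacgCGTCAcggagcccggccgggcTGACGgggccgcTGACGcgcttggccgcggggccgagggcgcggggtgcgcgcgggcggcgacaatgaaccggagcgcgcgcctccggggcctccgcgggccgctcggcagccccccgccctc
Nr4a3, chr4:48045055-48045304, plus strand: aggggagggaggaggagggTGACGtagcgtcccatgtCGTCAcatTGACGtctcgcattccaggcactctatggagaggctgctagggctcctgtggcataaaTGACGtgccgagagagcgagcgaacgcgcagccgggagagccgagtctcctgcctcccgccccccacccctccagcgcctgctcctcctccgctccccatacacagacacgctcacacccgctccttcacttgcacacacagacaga
Btg2, chr1:134079156-134079405, minus strand: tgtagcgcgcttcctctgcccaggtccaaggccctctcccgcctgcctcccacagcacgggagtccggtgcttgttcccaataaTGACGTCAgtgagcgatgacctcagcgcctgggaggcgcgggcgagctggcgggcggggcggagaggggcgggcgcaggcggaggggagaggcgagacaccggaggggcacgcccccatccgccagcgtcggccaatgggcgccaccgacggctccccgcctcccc
Dusp1, chr17:26508473-26508722, minus strand: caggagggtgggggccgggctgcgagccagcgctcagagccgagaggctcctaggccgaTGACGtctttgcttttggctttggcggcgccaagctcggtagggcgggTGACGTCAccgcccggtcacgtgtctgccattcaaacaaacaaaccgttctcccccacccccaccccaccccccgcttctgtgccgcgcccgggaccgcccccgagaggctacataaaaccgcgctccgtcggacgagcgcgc

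Each NR4A window held 4 CRE half-sites and no full CRE. Such a count of at least 4, a cut equal to the count in these windows, was found in 0.231% of all 32851 mouse windows. At least 1 half-site was found in 20.8%. Among the other immediate early genes listed below, 25 of 45 with a window held a half-site and 3 of 45 a full CRE. Among the members these were 6 of 7 and 2 of 7. In Nr4a1 the half-sites began at -233, -213, -69 and -40 from the start, and in Nr4a2 at -200, -144, -123 and -111. In Nr4a3 they began at -231, -213, -205 and -147. Btg2 held a full CRE at -166, and Dusp1 held one at -143 beside a half-site at -191. A full CRE, which holds 2 overlapping half-sites, occurred in 1.79% of all windows. Egr2 has 5 partly overlapping windows from alternative starts, of which 4 held a CArG box and 3 held 2 CRE half-sites. The CArG box occurred in 1.63% of all windows. The letters of the TATA box, TATAAA, occurred in 13.6% of all windows. Among the members they occurred only in Nr4a2, on the opposite strand at -164. The Nr4a1 window also held the EGR-type site GCGGGGGCG on the opposite strand at -60, found in 2.91% of all windows. None of the 7 members held the NBRE, AAAGGTCA (1.51% of all windows), or the EGR site GCGTGGGCG (0.612%), and Ier3 held no match to any motif searched. The gene models of the count table begin upstream of the RefSeq start in Nr4a1, Nr4a3, Ier3 and Dusp1, and upstream of the first of its starts in Egr2. A match is a description of these letters and does not show binding.

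**Figure D1:**
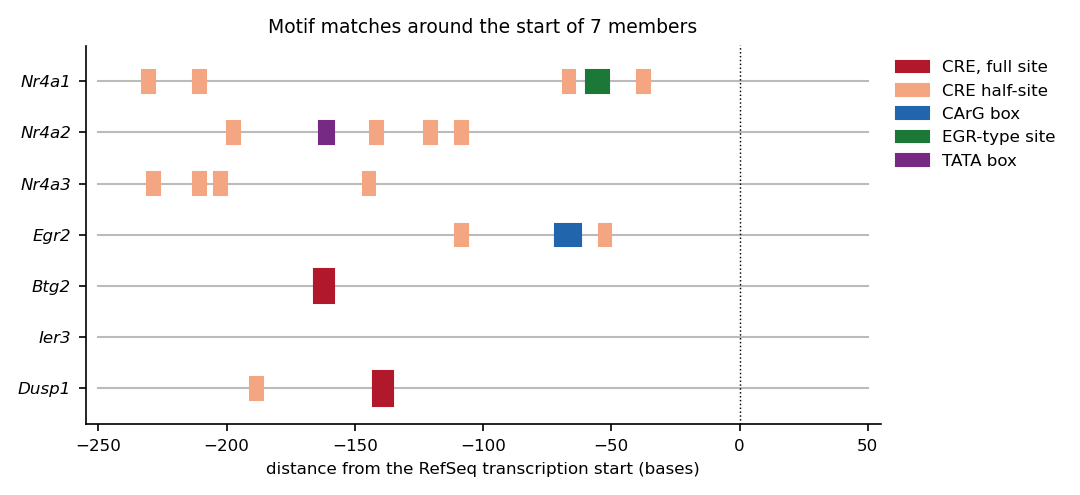
Motif matches in the RefSeq windows of 7 members, by distance from the transcription start in bases; boxes are colored by motif, and for Egr2 the third of its 5 windows is drawn. The NR4A genes carry 4 CRE half-sites each, while Btg2 and Dusp1 carry a full CRE at -166 and -143.

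Library totals were 14927989 to 18394797 counts in KO libraries and 15075610 to 16321292 in WT libraries. Mttp itself, with 67 to 124 counts in KO libraries and 179 to 228 in WT libraries, fell (log2 fold change -1.15 ± 0.14 SE, adjusted p = 4.45e-06 by the quasi-likelihood test of edgeR with Benjamini-Hochberg adjustment, used throughout). Its transcript was reduced and not lost. Mitochondrially encoded genes took 4.92% to 6.16% of counts in KO libraries and 3.65% to 4.80% in WT libraries (exact permutation test, two-sided, p = 0.0286, the smallest possible with 4 against 4). Leydig markers were abundant, with 9 of 9 tested, 7 higher in KO cells and none lower, and a summed 8453 to 9343 CPM (counts relative to the scaled total of the library) in KO libraries and 7318 to 8374 CPM in WT libraries. Of the markers of other cell types, those of macrophages summed to 12.5 to 16.1 CPM in KO libraries and 20.75 to 26.9 CPM in WT libraries, with Adgre1, Ptprc, Lyz2 and Tyrobp at 0 in all 8 and Cd68 at 3.42 CPM in KO libraries and 11.05 CPM in WT libraries. Endothelial markers summed to 100.3 to 119.5 CPM in KO libraries and 182 to 209.6 CPM in WT libraries, nearly all of it Cdh5, with Vwf at 0. Sertoli markers summed to 366 to 409 CPM in KO libraries and 228 to 243 CPM in WT libraries, mostly Rhox5. Fibroblast and myoid markers, led by Col1a1, reached 1.15 CPM in KO libraries and 14.65 CPM in WT libraries, with Dcn at 0, and germ cell markers, led by Ddx4, 6.09 CPM in KO libraries and 4.53 CPM in WT libraries. The part of these differences in the results below was not tested.

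Most of the members were lower in KO cells. At an adjusted p below 0.05, 8 of 10 members fell, 1 rose and 1 was not called. Over all 13185 genes tested, 21.1% fell and 21.7% rose. The median log2 fold change was -0.78 over the 10 members and -0.0019 over all tested genes. In all 8 members that fell, every KO library lay below every WT library, an arrangement found in 18.9% of all tested genes. The opposite arrangement, found in 19.7% of all tested genes, occurred in no member. With a further limit of 0.5 on the log2 fold change, 6 members counted as lower, against 8.44% of all tested genes. In bulk RNA, fewer cells expressing a gene and less RNA per cell cannot be told apart.

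**Figure D2:**
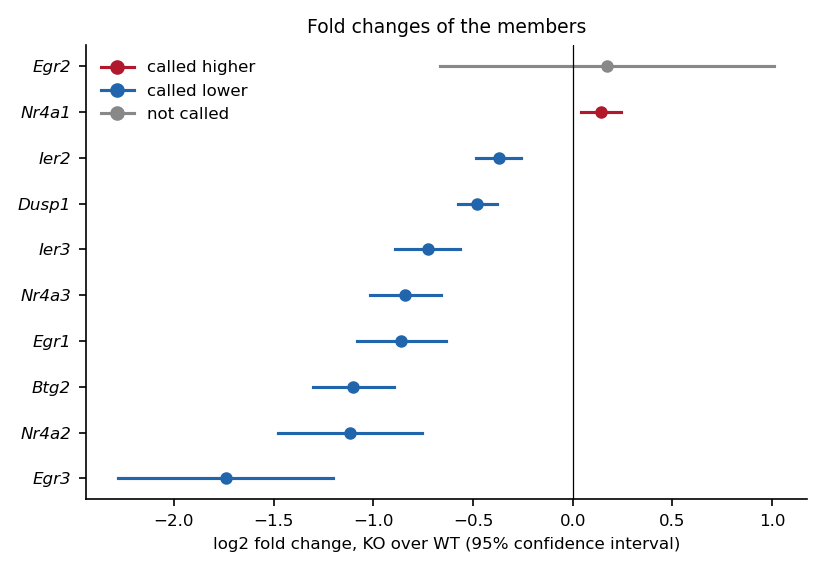
Log2 fold change of each member, KO over WT, with its 95% confidence interval, ordered from highest to lowest; color gives the call. Egr3 lies lowest at -1.74, Nr4a1 is the only member called higher at 0.14, and the interval of Egr2 spans 0.

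The 3 NR4A receptors did not move together. Nr4a1 (Nur77), a receptor strongly induced by cyclic AMP in Leydig cells, is on chromosome 15 (GRCm38, 101254269 to 101274795, plus strand). It had 2429.7, 2794, 2801 and 2733 CPM in the 4 KO libraries, against 2465, 2420.5, 2477 and 2389 CPM in the 4 WT libraries. KO libraries 2, 3 and 4 were above all WT libraries, and KO library 1 was below 2 of them, so the groups overlapped. Nr4a1 rose by 0.14 on the log2 scale (SE 0.048, adjusted p = 0.0263), a mean of 110.3% of the WT level. This call was not stable: it was lost without KO library 2, 3 or 4 or WT library 2 (adjusted p = 0.0547, 0.0879, 0.0538 and 0.0619). Without KO library 1 the log2 fold change was 0.19 (adjusted p = 0.0015), and over 18 alternatives without a fold limit the adjusted p ran from 0.0015 to 0.0879.

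Nr4a3 (Nor-1), a close relative that binds the same DNA element, lies on chromosome 4 (48045153 to 48086447, plus strand). It had 198.5, 257, 223 and 260.4 CPM in KO libraries, against 451.5, 461, 393 and 374 CPM in WT libraries. The highest KO library was well below the lowest WT library. Nr4a3 fell by 0.84 on the log2 scale (SE 0.084, adjusted p = 8.03e-07), to 55.9% of the WT mean. Nr4a2 (Nurr1), best known for its role in dopamine neurons, was scarce, with 30 to 37 counts in KO libraries and 58 to 83 counts in WT libraries (chromosome 2, 57106830 to 57124003, minus strand). Its levels were 2.14, 2.02, 1.85 and 2.13 CPM in KO libraries, against 4.28, 3.84, 4.30 and 5.24 CPM in WT libraries. The groups did not overlap, and Nr4a2 fell by 1.12 on the log2 scale (SE 0.17, adjusted p = 6.71e-05).

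The makeup of the family also differed between groups. Per kilobase of gene length, Nr4a1 made up 95.1% ± 0.41 of the NR4A level in KO libraries and 90.7% ± 0.81 in WT libraries (SD, n = 4 each). Nr4a3 made up 4.85% ± 0.41 in KO libraries and 9.15% ± 0.83 in WT libraries, and Nr4a2 less than either in all 8. There were 10.5 to 12.6 Nr4a1 counts for each Nr4a3 count in KO libraries, and 5.25 to 6.39 in WT libraries. The summed NR4A level was 806 ± 53.8 CPM per kilobase in KO libraries and 766 ± 15.0 in WT libraries, ranges that overlapped through KO library 1.

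In the EGR family, Egr1 and Egr3 fell while Egr2 could not be resolved. Egr1, a zinc finger factor induced by growth factors and gonadotropins, is on chromosome 18 (34859823 to 34864984, plus strand). It had 19.2, 26.6, 24.3 and 28.8 CPM in KO libraries, against 49.7, 47.8, 41.9 and 39.8 CPM in WT libraries. No KO library reached the lowest WT library, and Egr1 fell by 0.86 on the log2 scale (SE 0.10, adjusted p = 6.24e-06).

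Egr3, a relative with a similar DNA-binding domain, gave the largest fall of the 10 (chromosome 14, 70077203 to 70082614, plus strand). It had 9, 13, 17 and 18 counts in KO libraries and 36, 48, 44 and 51 counts in WT libraries. These are 0.520, 0.876, 0.926 and 1.10 CPM in KO libraries, against 2.203, 3.18, 2.87 and 3.22 CPM in WT libraries. The highest KO library lay well below the lowest WT library, and Egr3 fell by 1.74 on the log2 scale (SE 0.25, 95% interval -2.28 to -1.20, adjusted p = 4.23e-05).

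Egr2 (Krox20), known for its role in myelinating Schwann cells, had 6, 9, 17 and 15 counts in KO libraries and 16, 6, 10 and 7 in WT libraries (chromosome 10, 67535475 to 67542188, plus strand). These are 0.347, 0.607, 0.926 and 0.914 CPM in KO libraries, against 0.979, 0.398, 0.652 and 0.442 CPM in WT libraries. The groups overlapped over nearly their whole range. The log2 fold change was 0.17 (SE 0.39, 95% interval -0.67 to 1.01, adjusted p = 0.762), so neither a fall nor a rise within that interval could be excluded. Per kilobase, Egr1 made up 93.4% ± 1.5 of the EGR level in KO libraries and 92.2% ± 0.98 in WT libraries. The summed EGR level was 5.92 ± 1.0 CPM per kilobase in KO libraries and 10.8 ± 1.0 in WT libraries (SD, n = 4 each), with no overlap.

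**Figure D3:**
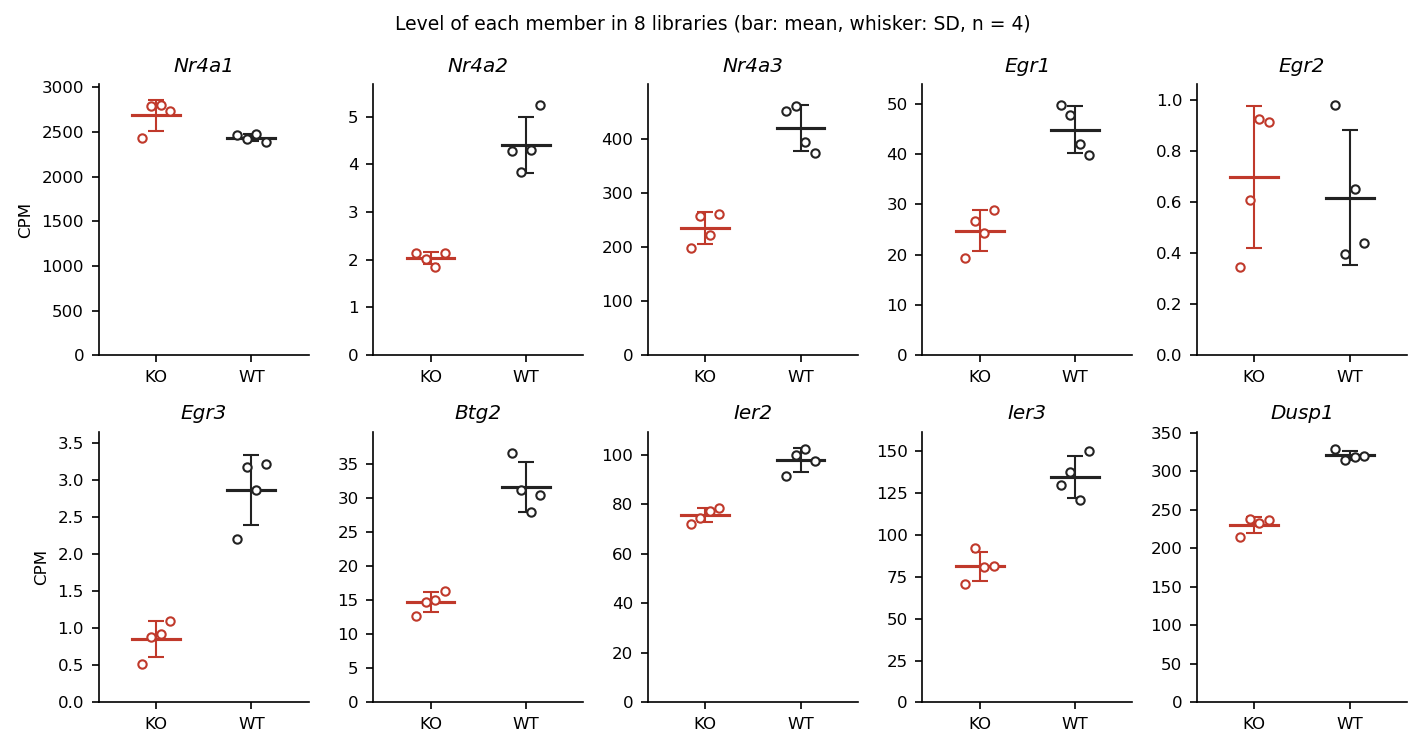
CPM of each member in the 4 KO libraries and the 4 WT libraries; circles are libraries, bars are means, whiskers are SD, and each axis starts at 0. KO circles lie below all WT circles for 8 members, and overlap them for Nr4a1 and Egr2.

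All 4 of the other regulators fell. Btg2, an antiproliferative protein that recruits the CCR4-NOT deadenylase, is on chromosome 1 (134075170 to 134079120, minus strand). It had 12.7, 14.8, 15.1 and 16.4 CPM in KO libraries, against 36.65, 31.2, 27.9 and 30.5 CPM in WT libraries. The groups were far apart, and Btg2 fell by 1.10 on the log2 scale (SE 0.095, adjusted p = 1.56e-07), to 46.7% of the WT mean.

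Ier3 (IEX-1), a stress-inducible regulator of cell survival, is on chromosome 17 (35821684 to 35822923, plus strand). It had 70.8, 92.2, 80.9 and 81.3 CPM in KO libraries, against 129.5, 138, 121 and 149.9 CPM in WT libraries. Here too no library of one group reached the other, and Ier3 fell by 0.73 on the log2 scale (SE 0.077, adjusted p = 1.42e-06). Dusp1 (MKP-1), a nuclear phosphatase that inactivates MAP kinases and is itself induced by cyclic AMP, is on the same chromosome (26505590 to 26508519, minus strand). It had 214, 237.5, 232 and 236 CPM in KO libraries, against 329, 315, 318.5 and 319.8 CPM in WT libraries. The spread within each group was small, 4.75% of the mean in KO libraries and 1.81% in WT libraries, and Dusp1 fell by 0.48 on the log2 scale (SE 0.046, adjusted p = 5.8e-07).

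Ier2, a small nuclear protein linked to cell motility, showed the smallest of the 8 falls (chromosome 8, 84661331 to 84662852, minus strand). It had 71.9, 74.55, 77.4 and 78.3 CPM in KO libraries, against 91.35, 99.95, 102 and 97.4 CPM in WT libraries. Ier2 fell by 0.37 on the log2 scale (SE 0.053, adjusted p = 3.23e-05), to 77.3% of the WT mean. No other gene of the table overlapped the position of any member.

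Compared per kilobase of gene length, Nr4a1 was far above the other members, at 766 ± 50.1 CPM per kilobase in KO cells and 695 ± 11.6 in WT cells. It ranked 30 among the 13185 tested genes in KO cells and 43 in WT cells. In KO cells the order below it was Dusp1 (85.3 ± 4.0), Ier3 (71.9 ± 7.7), Ier2 (49.6 ± 1.9) and Nr4a3 (39.2 ± 4.9), all in CPM per kilobase. Egr1 (5.52 ± 0.92), Btg2 (5.37 ± 0.55), Nr4a2 (0.502 ± 0.033), Egr2 (0.2055 ± 0.082) and Egr3 (0.194 ± 0.055) followed. In KO cells the ranges of the neighbors Dusp1 and Ier3, Egr1 and Btg2, and Egr2 and Egr3 overlapped, while the other neighbors were apart.

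In WT cells the order was Nr4a1, Ier3 (118.9 ± 10.9), Dusp1 (118.8 ± 2.2), Nr4a3 (70.1 ± 7.2), Ier2 (64.2 ± 3.1), Btg2 (11.5 ± 1.3) and Egr1 (9.995 ± 1.0) CPM per kilobase. Nr4a2 (1.09 ± 0.14), Egr3 (0.651 ± 0.11) and Egr2 (0.182 ± 0.078) came last. There the ranges of Ier3 and Dusp1, Nr4a3 and Ier2, and Btg2 and Egr1 overlapped. Egr3 was above Egr2 in WT cells with no overlap, and level with it in KO cells.

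The libraries of KO cells were not alike. KO library 1 had the lowest level of the 4 in 9 of 10 members, the exception being Nr4a2. Among all tested genes, KO library 1 was the lowest in 27.6%. It also had the largest mitochondrial share, 6.16%, and its part in these levels was not tested. Without KO library 1, the 8 falling members were all still called, with log2 fold changes between -1.55 (Egr3) and -0.34 (Ier2). Among WT libraries, no library was lowest in more than 3 members.

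The profiles of Nr4a3 and Egr1 were the closest pair of members. Their log2 CPM, each centered on its own mean, differed by a root mean square of 0.058 over the 8 libraries. Ier2 and Dusp1 came next, at 0.084. The measure spans both groups, so genes of similar fold change come out close (-0.84 for Nr4a3 and -0.86 for Egr1). It does not show that they varied alike within a group. Among 9638 other protein-coding genes with a mean of at least 5 CPM, those closest to Egr3 were Hrc, Col14a1 and Cryab (root mean square differences 0.154, 0.198 and 0.228 over 8 libraries, against a median of 0.877). For Nr4a1, Phactr2 and Thoc5 were among the closest (0.0313 and 0.0332, against a median of 0.160), and its nearly flat profile is near that of many genes.

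**Figure D4:**
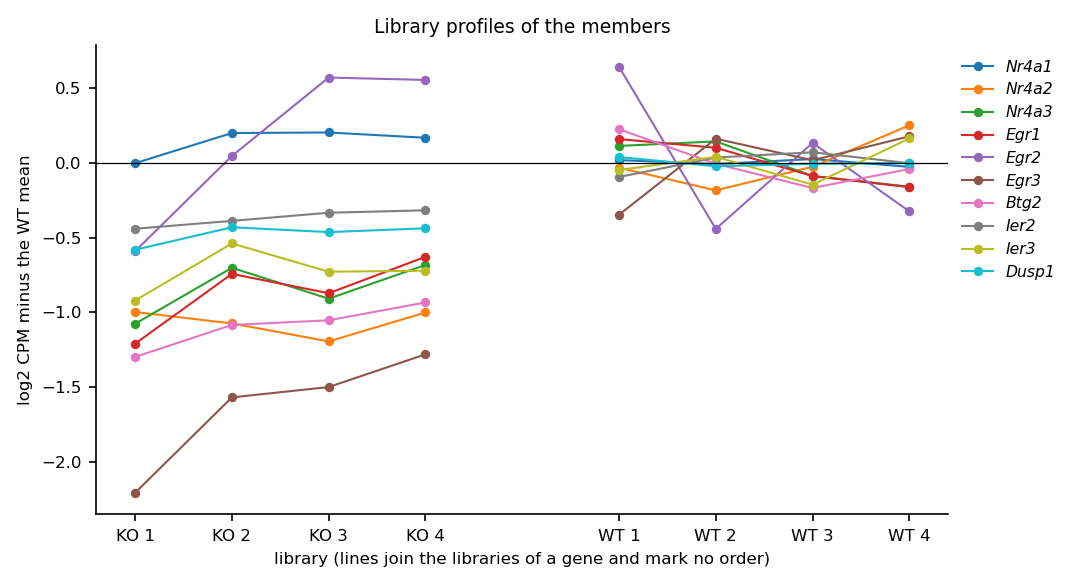
Log2 CPM of each member in every library minus the mean of the WT libraries for that gene, KO libraries on the left and WT libraries on the right. KO library 1 is the lowest KO library in 9 of 10 members, and only Nr4a1 and Egr2 reach the WT mean in any KO library.

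Other immediate early genes were then counted from wider lists, also chosen with earlier results of these data known. Of 26 other immediate early transcription factors, all tested, 19 fell, 3 rose and 4 were not called, with a median log2 fold change of -0.42. Fosl1, an AP-1 subunit, fell to 38.0 ± 6.5 CPM in KO cells, against 101.7 ± 13.3 CPM in WT cells (log2 fold change -1.42). Egr4, a further EGR factor, fell by 1.34 on the log2 scale. Of 2 relatives of Ier2, Ier5 fell by 1.31 and Ier5l fell by 1.28 on the same scale. Crem, whose short product ICER represses CRE-driven genes, fell by 0.96 on the log2 scale. Counts per gene do not separate ICER from the other products of Crem. Fosl2, Bhlhe40 and Junb were among the most abundant of the list. Fosl2 fell by 0.28 and Junb fell by 0.31 on the log2 scale, while Bhlhe40, a circadian repressor, rose by 0.23. Klf6, a Krüppel-like factor, rose by 0.47. Fos, the classical AP-1 subunit, was not called, at 87.4 ± 7.6 CPM in KO cells and 93.35 ± 6.1 CPM in WT cells, and neither was Jun (log2 fold change -0.096).

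Of 35 other signaling and RNA regulators, 28 were tested, of which 14 fell, 5 rose and 9 were not called (median log2 fold change -0.27). Arc, a neuronal immediate early protein, fell by 1.69 on the log2 scale, to 11.1 ± 2.3 CPM in KO cells, against 35.75 ± 6.4 CPM in WT cells. Spry4, an inhibitor of growth factor signaling, fell by 1.13 on the log2 scale. It was scarce, with 14 to 21 counts in KO libraries and 33 to 47 counts in WT libraries. Phlda1 fell by 0.93 on the log2 scale. Dusp8, another MAP kinase phosphatase, rose by 0.88 on the log2 scale, and Btg3, a relative of Btg2, by 0.47. Mcl1, a survival factor, fell by 0.33 and was the most abundant gene of the list. Of both lists together, KO library 1 was the lowest KO library in 40 of 54 tested genes.

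Of 20 tested CREB, SRF and kinase genes known to act upstream, 4 rose, 1 fell and 15 were not called (median log2 fold change 0.036), while 7553 of all 13185 tested genes were not called. Creb1 had 33.96 ± 2.1 CPM in KO cells and 34.2 ± 2.7 CPM in WT cells (log2 fold change -0.0091, SE 0.071). Elk1, an ETS partner of serum response factor, rose by 0.47, and Crtc2, a CREB coactivator, fell by 0.36 on the log2 scale. Srf had 106.9 ± 3.0 CPM in KO cells and 116.3 ± 10.8 CPM in WT cells and was not called. Transcript levels do not measure the phosphorylation that activates these proteins.

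Of 14 tested partners and corepressors of NR4A, EGR and BTG proteins, 5 rose, 1 fell and 8 were not called (median log2 fold change 0.11). Of all 13185 tested genes, 7553 were not called, so the list was called about as often as all tested genes. Its log2 fold changes ran from -0.39 to 0.32. Nab1 and Nab2, which bind EGR factors and repress them, were not called, at log2 fold changes of 0.10 and 0.17. Cnot7, a deadenylase bound by BTG proteins, rose by 0.28 on the log2 scale. Ncoa3, a coactivator, fell by 0.39 on that scale. Of 6 Leydig genes whose promoters are known to respond to NR4A receptors, 5 rose, none fell and 1 was not called. A rise was found in 21.7% of all tested genes. All but Nr0b1 are also among the Leydig markers counted above, so their rises are counted in both lists. The gene not called was Star, the most abundant of the list (log2 fold change -0.10). It had 5290 ± 298 CPM in KO cells and 5685 ± 340 CPM in WT cells. Nr0b1 rose by 0.18 on the log2 scale, with overlapping groups. Insl3, the hormone of testicular descent, had 68.9 ± 6.0 CPM in KO cells and 28.1 ± 3.5 CPM in WT cells (log2 fold change 1.29, adjusted p = 7.67e-09). Hsd3b1, which makes progesterone from pregnenolone, rose by 1.66 on the log2 scale; it has close copies in the mouse genome, among which counting may have split its reads.

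**Figure D5:**
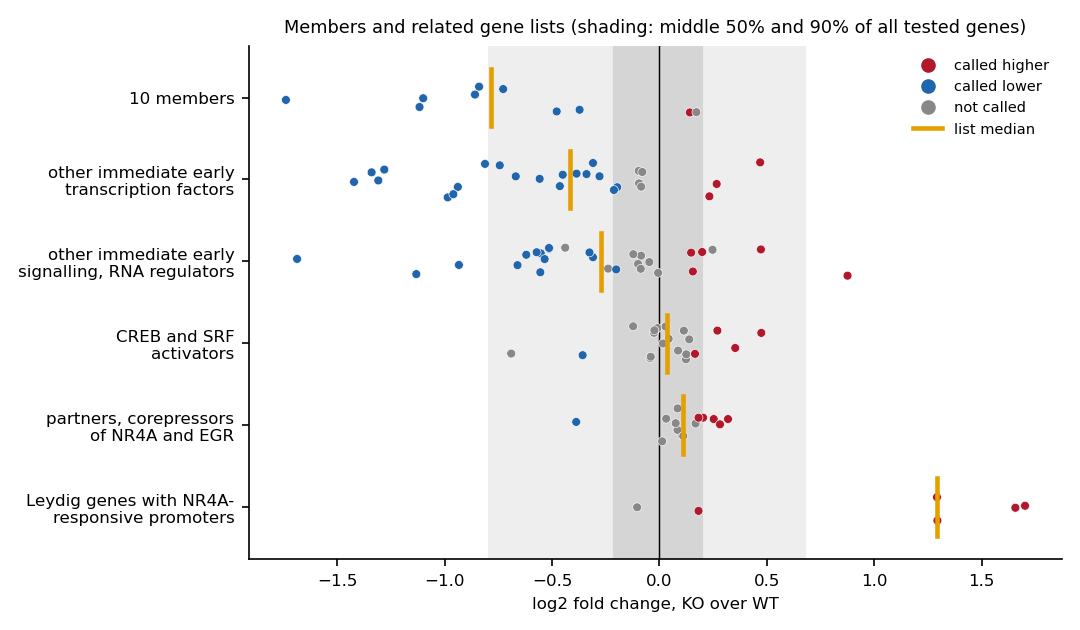
Log2 fold changes, KO over WT, of the tested genes of each list; points are genes colored by call, orange bars are list medians, and shading spans the middle 50% and 90% of all tested genes around their median of -0.0019. Medians are -0.78 for the 10 members, -0.42 and -0.27 for the other immediate early lists, and 0.036 for the CREB and SRF activators.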

How the data were processed

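RNA was measured in 4 KO and 4 WT libraries of MA-10 cells, grouped by their titles, since the genotype label reads the same for all 8. Per the labels, mRNA was selected with poly-T beads and second-strand synthesis used dTTP, which does not mark strand, while the study's methods name polyU columns. The authors deposited raw counts of reads per gene. The submitters' processing notes name HISAT2 2.0.5 and featureCounts 1.5.0-p3, and 3 builds (GRCh37, hg19, mm39) whose roles are not stated. Positions given with the genes match GRCm38. No column of per-sample values was left out. Cells were plated in triplicate, and how plates relate to libraries is not given, so p-values measure the spread between libraries.

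Low genes were removed with filterByExpr (at least 10 counts, total of 15), and counts were scaled by TMM and tested with the quasi-likelihood test of edgeR 4.0.16 in R 4.3.3, with Benjamini-Hochberg adjustment over all 13185 genes and a threshold of 0.05. CPM were computed from the deposited counts with TMM-scaled library sizes. Library totals of 14927989 to 18394797 counts and a biological coefficient of variation of 7.11% set the precision. The test was checked on simulated counts. Alternatives were DESeq2 1.42.0 and its size factors, limma 3.58.1 voom, library totals, other filters, fold limits, a replicate block, leaving out each library, and, chosen after seeing the data, leaving out mitochondrially encoded genes or chromosomes 3 and 19. Promoter windows are from RefSeq. The members and lists were chosen with earlier results of these data known. Named genes are all members, Mttp, called genes of large change and abundant genes of each list, and the 3 genes nearest in profile to the called members of largest rise and fall. Some further genes were picked as examples after their values were seen, and some genes the rule names are not reported here.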

Additional observations from a re-analysis of the deposited data

How the results depend on the processing

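The 8 falls among the members kept their direction in every alternative that tested the gene. Each was called in all 17 (Egr3) or 18 alternatives without a fold limit that tested it. A filter of 10 counts in every library left Egr2 and Egr3 untested and 7 falls called. Testing against a log2 fold change of 0.5, or requiring one, left 6 falls: Ier2 (-0.37) and Dusp1 (-0.48) were no longer called. Either limit also left 0 members higher, Nr4a1 keeping a value of 0.14. With a replicate block, Nr4a1 was not called (0.14, adjusted p = 0.0843) and 0 members were higher, while 8 fell. Whether the numbers pair the libraries is not stated. Of 4 same-numbered pairs, 0 correlated above 0.1 (r from -0.15 to 0.041), and 2 of 4 KO libraries correlated best with their own number. With 4 libraries in each group, these correlations cannot decide whether the libraries are paired. Leaving out 1 library gave 0 to 1 members higher and 8 lower, and log2 fold changes of 0.12 to 0.19 for Nr4a1. For Egr2 it gave -0.004 to 0.49, the sign turning without KO library 3. Over all genes, the test against 0.5 called 451 higher and 552 lower, and the added limit 969 and 1113, against 2856 and 2776. Among other immediate early transcription factors the test against 0.5 left 0 higher and 10 lower, and the limit 0 and 11. Among signaling and RNA regulators both left 1 higher, and the test against 0.5 left 3 lower. There, 3 were higher with 10 counts in every library, DESeq2 size factors or library totals, 2 with the block, and 2 to 5 without 1 library (2 without KO library 3 or WT library 3, 3 without KO library 2 or 4 or WT library 2 or 4), against 5. The CREB and SRF list kept 0 higher and 0 lower under both fold limits, and 2 lower with 10 counts in every library. Without chromosomes 3 and 19 it had 0 lower, as Crtc2, its only fall, lies on chromosome 3. Without 1 library it had 1 to 2 lower (2 without WT library 3 or 4). The partner list kept 0 and 0 under both limits, 3 higher with the block, and 3 to 6 higher without 1 library (3 without KO library 3). The Leydig list kept 3 higher without chromosomes 3 and 19, where fewer of its genes were tested. Causes of the other changes were not tested. Depth limits Egr2, Egr3 and Nr4a2 most, with sums of 47, 57 and 136 counts over the KO libraries and 39, 179 and 277 over the WT libraries.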
